A study of Mus musculus with 6 samples.

Results

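The integrated stress response genes described here are 32 listed symbols of the ATF4 pathway and of amino acid supply, and 31 of them had a row among the 17030 genes of the expression table. Stc2 was not analysed here. Their rows were taken by symbol, but the list was chosen with earlier results of these data known. They were read in SCC7, a mouse squamous cell carcinoma line grown in high-glucose medium with serum, in 3 untreated control libraries and 3 libraries of irradiated cells (9 Gy), all labelled day 0. No genotype or further agent is named in the labels. They do not tell separate cultures from repeats of 1 culture, so a p-value here measures only the spread between these libraries, which may be technical. Values are FPKM, fragments per length of transcript, scaled to the fragments of the library, and the comparison asks which transcripts differ after radiotherapy.

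The integrated stress response is the program a cell starts when kinases sensing amino acid shortage, unfolded protein in the endoplasmic reticulum, double-stranded RNA or haem deficiency phosphorylate the translation factor eIF2. Most translation then falls, while the mRNA of the transcription factor ATF4 is translated more efficiently. ATF4, often paired with a C/EBP family partner, activates genes that import and make amino acids, the CHOP and ATF3 factors, and feedback genes that restart translation. In tumour cells the program is known for sustaining serine, asparagine and glutathione supply.

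ATF4 with a C/EBP partner is known to bind a composite element, and short stretches of promoter that hold its core are shown here because they mark where several members carry it. Windows from 250 bases before to 50 bases after the start site (RefSeq, GRCm38.p6) were held for 27 of the 31 genes. The core TGATGNAA was searched on both strands, so it can also read as its reverse complement. It was present in 10 of these 27 genes (37.0%), against 4.51% of all 27025 genes with a window. The genes were listed as members of the ATF4 pathway, so the share is given with no test. The match is in capitals, each sequence runs 5′ to 3′ on the strand of the gene, and those shown belong to the 8 genes with a match that could be tested.

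Atf3 (chr1:191183416-191183463, minus strand): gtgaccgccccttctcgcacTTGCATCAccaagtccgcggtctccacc
Pycr1 (chr11:120643824-120643871, minus strand): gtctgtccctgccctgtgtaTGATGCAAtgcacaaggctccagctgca
Nupr1 (chr7:126625553-126625600, minus strand): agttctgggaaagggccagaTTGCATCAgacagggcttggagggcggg
Pck2 (chr14:55540143-55540190, plus strand): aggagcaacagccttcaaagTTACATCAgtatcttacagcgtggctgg
Chac1 (chr2:119351029-119351076, plus strand): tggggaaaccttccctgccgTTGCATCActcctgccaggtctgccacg
Asns (chr6:7693210-7693257, minus strand): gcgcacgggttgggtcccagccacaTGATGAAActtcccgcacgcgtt
Trib3 (chr2:152344028-152344057, minus strand): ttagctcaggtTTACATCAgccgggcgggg
Slc1a4 (chr11:20332699-20332728, minus strand): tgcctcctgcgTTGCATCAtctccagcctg

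The core lay 110 to 103 bases before the start site in Atf3 and in Nupr1, 103 to 96 bases before it in Pycr1 and Pck2, 193 to 186 bases before it in Chac1 and 23 to 16 bases before it in Asns. In Slc1a4 it spanned the start site, and in Trib3 it lay 15 to 22 bases into the transcript. Vldlr and Fgf21 held it as well. The cyclic AMP response element TGACGTCA, a different string from that core, was found on either strand in Ppp1r15a and in no other member with a window, against 2.03% of all genes. The endoplasmic reticulum stress element, CCAAT and CCACG with a gap of 9 bases, was in 0 of the 27 and in 0.137% of all genes.

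The libraries were not equally alike. The sums of FPKM ran from 652691 to 982553. On log2(FPKM + 1) across the 11103 genes tested, Pearson's r was 0.994 to 0.995 between irradiated libraries and 0.989 between controls 1 and 2. Control 3 had an r of 0.956 and 0.928 with the other controls and of 0.9605 to 0.966 with the irradiated libraries. It was at least 2-fold above both other controls for 5.78% of genes tested and at least 2-fold below both for 2.59%, while no other library stood that far from its group for more than 0.450% of genes in either direction. Of 15 epithelial and keratinocyte markers, 10 were under 1 FPKM in all 6 libraries, among them Krt5, Krt14, Cdh1 and Epcam, and 4 (Krt8, Krt18, Jup and Sfn) passed the filter for testing. The summed level of the 15 was 716 to 1904 FPKM in controls and 502 to 511 FPKM in irradiated libraries. Krt8 measured 1249, 1361 and 487 FPKM in controls 1 to 3 and 371 to 393 FPKM in irradiated libraries. Krt18 measured 465, 528 and 212 FPKM in controls and 100.3 to 113 FPKM in irradiated libraries (log2 fold change -1.82, limma adjusted p = 0.0261), and Jup measured 7.88 to 14.0 FPKM in controls and 11.7 to 14.0 FPKM in irradiated libraries. The mesenchymal markers did not follow 1 order. Vim measured 5293, 5054 and 2410 FPKM in controls 1 to 3 and 2443 to 2629 FPKM in irradiated libraries, whereas Fn1 measured 147, 141 and 681 FPKM in controls and 396 to 467 FPKM in irradiated libraries. Of the 9 mesenchymal markers tested, Fn1 and Pdgfrb were at least 2-fold above both other controls in control 3. Col1a1 and Dcn were level across the controls and higher in irradiated libraries (log2 fold change 1.23 and 1.54, limma adjusted p = 0.00474 and 0.0086). Without irradiated library 1 none of these 3 marker calls passed (limma adjusted p = 0.153 for Krt18, 0.0562 for Col1a1 and 0.0531 for Dcn). The 13 fibroblast and mesenchymal markers summed to 3350 to 5612 FPKM in controls and 3049 to 3246 FPKM in irradiated libraries, and the part of either list in the results that follow was not tested. All 9 leukocyte and all 5 endothelial markers with a row stayed under 1 FPKM in every library.

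Most of these genes were far higher in control 3 than in controls 1 and 2, and for 17 of 28 the irradiated libraries lay between them. Of the genes that passed the filter (at least 1 FPKM in at least 3 libraries), 28 of 28 were highest in control 3 among the controls, as were 52.8% of all genes tested. In 27 of the 28, control 3 was the highest of all 6 libraries, against 19.4% of all genes tested, with Atf3 as the exception. In 22 of the 28 (78.6%), control 3 was at least 2-fold above both other controls, against 5.78% of all genes tested. The gap reached 14.5 and 19.97 times the FPKM of controls 1 and 2 for Cth, which makes cysteine from cystathionine, and 13.6 and 15.5 times for Chac1, a glutathione-degrading enzyme. Over the 28 genes the lowest ratio was 1.52 to control 1 (Mthfd1l) and 1.55 to control 2 (Phgdh). Just inside the 2-fold level were Slc38a2 (difference from the higher of the other controls 1.04 on the log2(FPKM + 1) scale) and Cebpb (1.19), and just outside it Atf4 (0.96) and Atf5 (0.95). When libraries were rescaled to a trimmed mean of their log ratios the count was 21, and with quantile normalization it was 23, checks added after the values were seen. Controls 1 and 2 were close to each other, with a median difference of -0.08 (control 2 minus control 1) both over the 28 genes and over all genes tested. A single library against its group has no replicate check, and what sets control 3 apart was not tested. In bulk RNA, fewer cells with the program and less RNA per cell cannot be told apart.

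**Figure D1:**
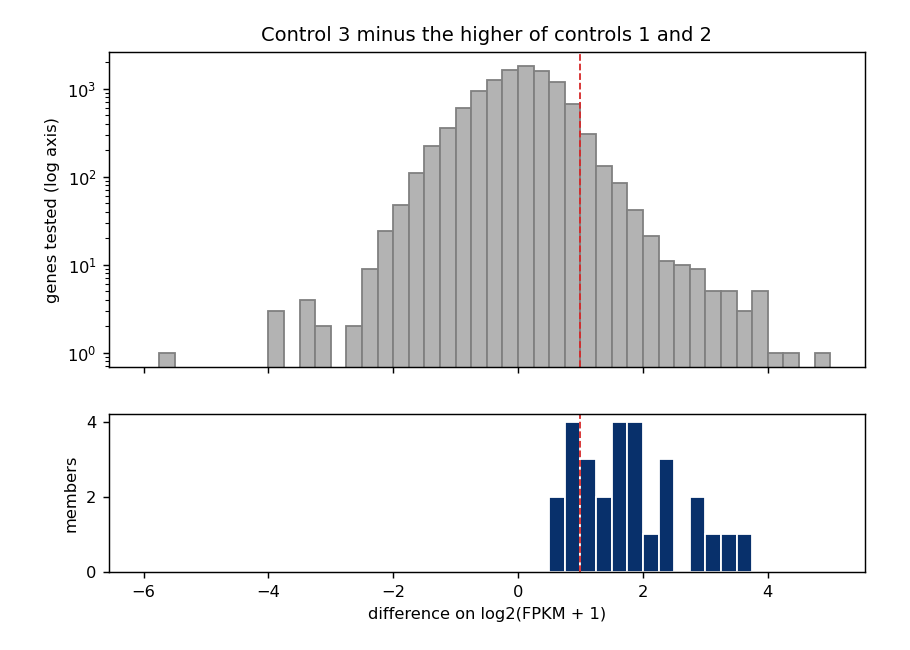
Histogram of the difference between control 3 and the higher of controls 1 and 2 on the log2(FPKM + 1) scale (x axis), for all 11103 genes tested (upper panel, number of genes on a log axis) and for the 28 stress response genes (lower panel, number of genes). The dashed line marks 2-fold; 22 of the 28 genes lie to its right, against 5.78% of all genes tested.

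With all 6 libraries, 0 of the 28 genes passed limma (adjusted p below 0.05), beside 12.0% of all 11103 genes tested. Among all genes 1026 were called higher and 308 lower, a split that was 663 and 564 with quantile normalization and 625 and 603 with trimmed-mean scaling. At an unadjusted p below 0.05 there were 3 (Atf4, Phgdh and Atf3), beside 38.3% of all genes. The median log2 fold change was -0.09 over the 28 genes and 0.17 over all genes tested. The spread behind this was unequal. The median SD on the log2 scale was 1.103 among controls and 0.11 among irradiated libraries for these genes, and 0.30 and 0.08 for all genes. In 17 of the 28 genes (60.7%) every irradiated library was above controls 1 and 2 and below control 3, an order seen in 12.0% of all genes tested and picked out after the values were seen. With trimmed-mean scaling that number was 15, and with quantile normalization 18. Since control 3 was the highest library in 27 of the 28 genes, its part of that order was largely given. The irradiated mean was above control 1 in 22 of the 28, against 61.1% of all genes tested. It was above control 2 in 21, against 63.5%. The median differences from controls 1 and 2 were 0.43 and 0.45, against 0.18 and 0.29 over all genes. Irradiated libraries were below all controls in 4 of the 28 genes, against 13.7% of all genes, and above all controls in none, against 31.8% of all genes.

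**Figure D2:**
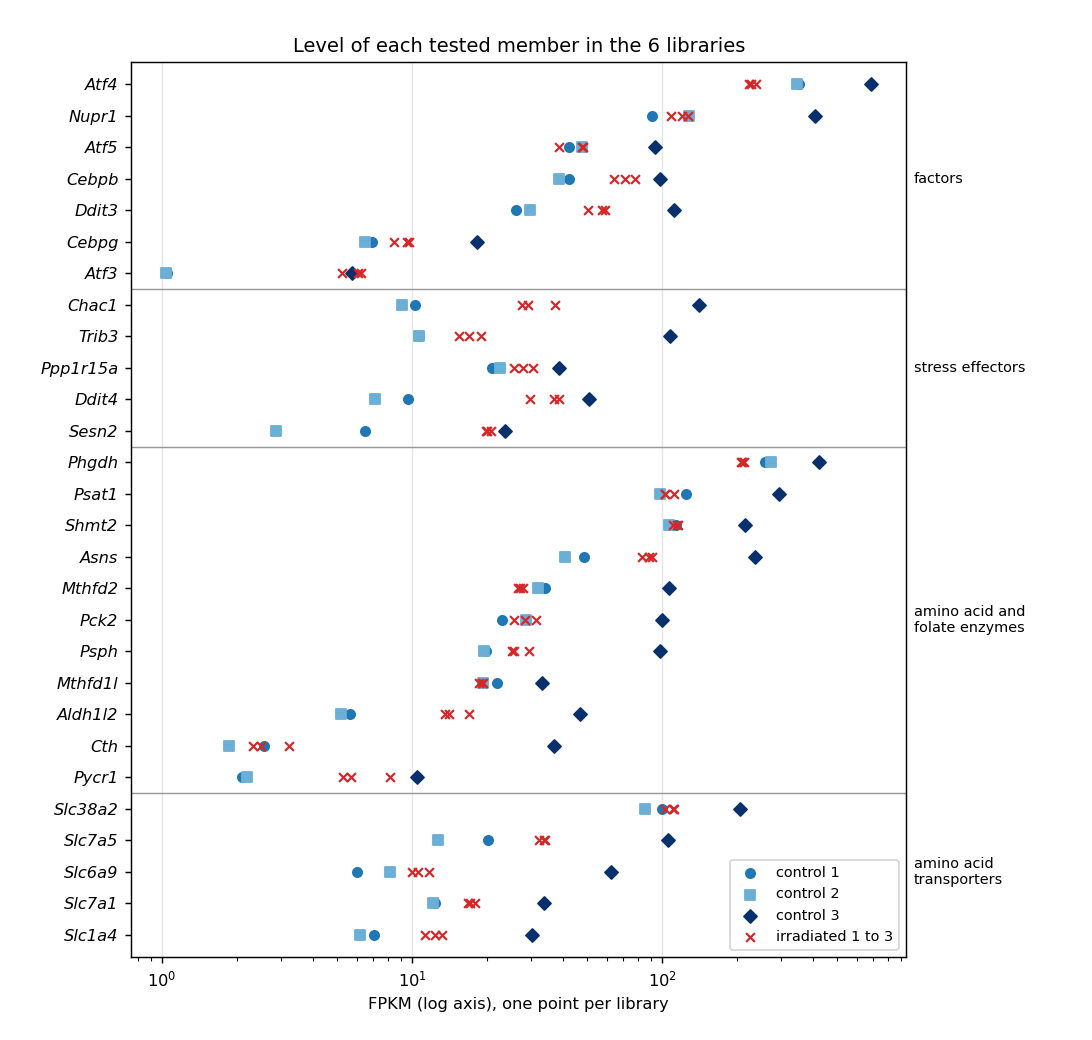
FPKM on a log axis of each of the 28 tested genes in the 6 libraries, grouped by role, with controls 1, 2 and 3 as separate blue marks and the 3 irradiated libraries as red crosses. Control 3 is the rightmost mark in 27 genes, and the irradiated libraries cluster tightly.

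Among the transcription factors, the RNA of Atf4 itself was lower in irradiated cells than in any control, while those of its partners lay between the controls. Atf4 (NCBI gene 11911, chromosome 15, 80255184 to 80257545 on GRCm38.p6) measured 353, 347 and 686 FPKM in controls 1 to 3 and 222, 228 and 237 FPKM in irradiated libraries 1 to 3. Every irradiated library was below every control. Its log2 fold change was -0.93 (SE 0.28, 95% interval -1.59 to -0.27, limma adjusted p = 0.0661), just short of the threshold. It passed after trimmed-mean scaling (-1.16, limma adjusted p = 0.0374) and without control 3 (-0.61, limma adjusted p = 0.000577), and over all settings its adjusted p ran from 0.000577 to 0.227.

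Ddit3 encodes CHOP, a C/EBP family factor of prolonged stress. It measured 25.9, 29.8 and 111 FPKM in controls 1 to 3 and 57.7, 59.3 and 50.4 FPKM in irradiated libraries, which were all above controls 1 and 2 and all below control 3. The group means were 55.7 ± 48.3 and 55.8 ± 4.74 FPKM (SD, n = 3 each), with a log2 fold change of 0.32 (95% interval -0.92 to 1.56, limma adjusted p = 0.656). Cebpb and Cebpg, which encode C/EBP partners of ATF4, had the same order. Cebpb measured 42.5, 38.6 and 98.0 FPKM in controls and 64.5, 77.8 and 71.2 FPKM in irradiated libraries. Cebpg measured 6.89, 6.48 and 18.1 FPKM in controls and 9.71, 9.55 and 8.46 FPKM in irradiated libraries.

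Atf3, an early stress factor that ATF4 activates, was the gene whose irradiated libraries reached the level of control 3. It measured 1.05, 1.04 and 5.74 FPKM in controls 1 to 3 and 6.25, 6.09 and 5.27 FPKM in irradiated libraries. Irradiated library 3 lay below control 3 and the other two above it, so the groups overlapped through that control alone. The log2 fold change was 1.17 (SE 0.46, 95% interval 0.08 to 2.27, limma adjusted p = 0.115), and it was the only one of the 28 whose difference from control 3 alone was above 0 (0.02). Atf5, an ATF4-related factor, measured 42.5, 47.9 and 93.5 FPKM in controls and 38.7 to 48.2 FPKM in irradiated libraries. Nupr1, a small stress-induced chromatin protein, measured 91.3, 128 and 407 FPKM in controls and 109 to 127 FPKM in irradiated libraries. The irradiated values of Nupr1 lay between controls 1 and 2, and those of Atf5 reached on either side of them.

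Among the 4 roles, the stress effectors had the largest median difference between irradiated cells and controls 1 and 2. In each of the 5 tested (Chac1, Trib3, Ppp1r15a, Ddit4 and Sesn2), all irradiated libraries were above both of these controls and below control 3. This order, read on the deposited scale, was seen in 12.0% of all genes tested. The median difference of the irradiated mean was 1.499 from control 1, 1.67 from control 2 and -0.53 from control 3, on the log2(FPKM + 1) scale. Ddit4 and Sesn2 both encode inhibitors of the growth kinase mTORC1 and are known targets of p53 as well as of ATF4. Ddit4 measured 9.67, 7.11 and 50.9 FPKM in controls 1 to 3 and 37.0, 38.6 and 29.5 FPKM in irradiated libraries. Sesn2 measured 6.47, 2.86 and 23.5 FPKM in controls and 19.8, 20.7 and 19.9 FPKM in irradiated libraries, so it lay close under control 3 (difference -0.21). Their log2 fold changes with all libraries were 1.12 (95% interval -0.45 to 2.69) and 1.25 (95% interval -0.21 to 2.70), and neither passed limma (adjusted p = 0.238 and 0.176).

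Chac1 and Trib3 had the same order with a larger gap to control 3. Chac1 measured 10.3, 9.08 and 141 FPKM in controls 1 to 3 and 29.2, 37.2 and 27.5 FPKM in irradiated libraries. Trib3, a pseudokinase that restrains ATF4 and AKT, measured 10.7, 10.7 and 107 FPKM in controls and 17.0, 18.9 and 15.4 FPKM in irradiated libraries. A stretch of Chac1 and of Trib3 is printed above, chosen because it holds the core. A link between the core and these levels was not tested. Ppp1r15a encodes GADD34, the phosphatase subunit that restores eIF2, and it differed least: 20.9, 22.6 and 38.7 FPKM in controls and 25.5, 30.6 and 27.7 FPKM in irradiated libraries.

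**Figure D3:**
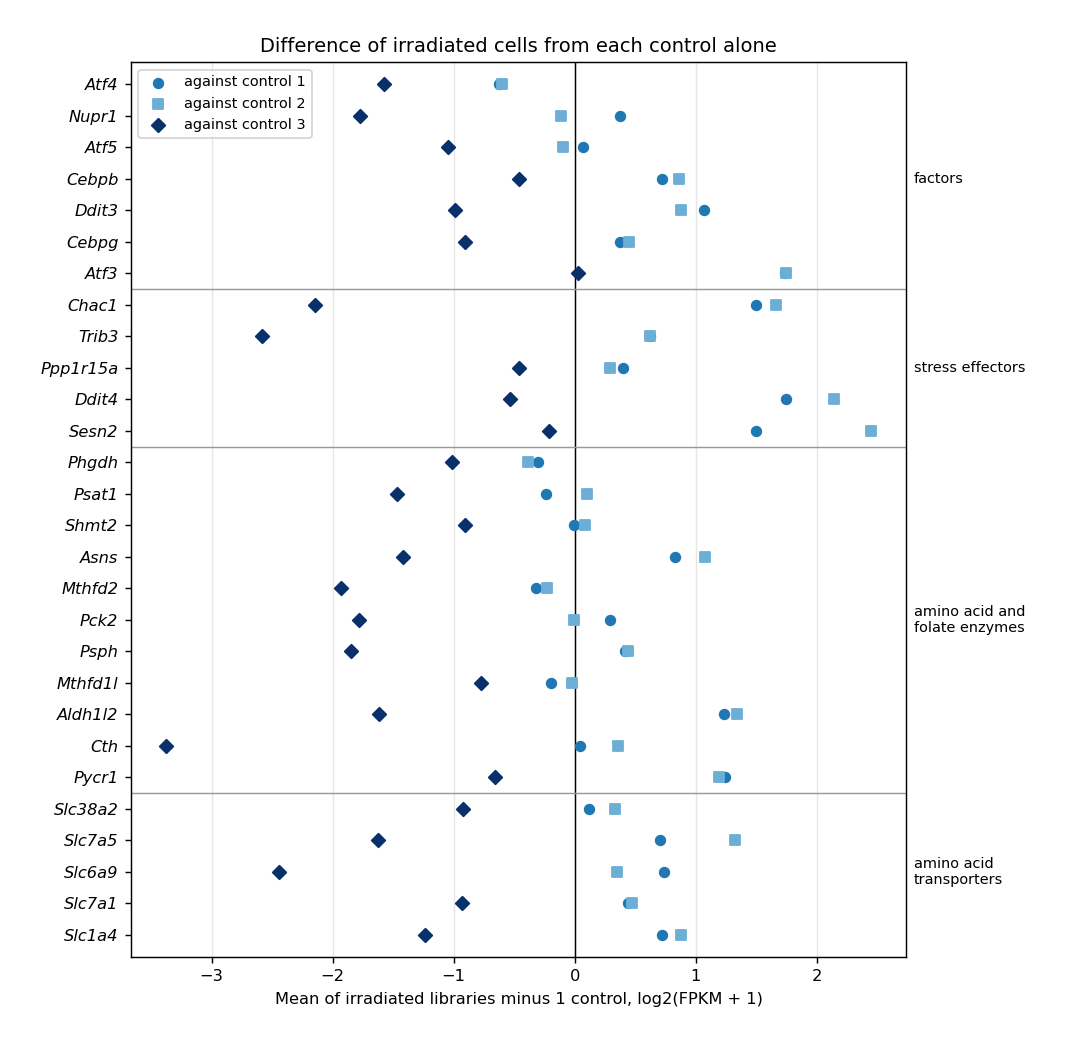
Mean of the 3 irradiated libraries minus 1 control on the log2(FPKM + 1) scale (x axis) for each of the 28 tested genes, with 1 mark for each control. Against control 3 all genes except Atf3 lie below 0. Against controls 1 and 2, Atf3, Ddit4, Sesn2 and Chac1 lie furthest above 0.

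Enzymes of amino acid and one-carbon metabolism did not share a single order. Against control 3 alone all 11 were lower in irradiated cells (median -1.47), whereas against controls 1 and 2 the medians were 0.04 and 0.11. In 4 of them (Asns, Psph, Aldh1l2 and Pycr1) all irradiated libraries lay above controls 1 and 2 and below control 3. The share of all genes tested with that order was 12.0%. Asns, asparagine synthetase, measured 48.8, 40.8 and 236 FPKM in controls 1 to 3 and 82.8, 90.8 and 88.9 FPKM in irradiated libraries. Aldh1l2, a mitochondrial folate enzyme, measured 5.67, 5.18 and 47.1 FPKM in controls and 14.0, 16.9 and 13.5 FPKM in irradiated libraries. Pycr1, the last step of proline synthesis, measured 2.08, 2.19 and 10.5 FPKM in controls and 5.28, 8.15 and 5.71 FPKM in irradiated libraries.

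In 3 of the 11 (Phgdh, Mthfd2 and Mthfd1l) all irradiated libraries lay below every control, as in 13.7% of all genes tested. Phgdh, which commits glycolytic carbon to serine, measured 258, 273 and 424 FPKM in controls and 212, 208 and 207 FPKM in irradiated libraries, below all controls. Its log2 fold change was -0.57 (SE 0.21, 95% interval -1.07 to -0.07, limma adjusted p = 0.103), and it passed after trimmed-mean scaling (-0.79, limma adjusted p = 0.0457), with a range of 0.00995 to 0.413 over all settings. Mthfd2, a mitochondrial folate dehydrogenase, measured 34.1, 31.9 and 106 FPKM in controls and 26.6, 27.1 and 27.8 FPKM in irradiated libraries. Mthfd1l, the mitochondrial formate-producing synthetase, measured 21.8, 19.2 and 33.1 FPKM in controls and 19.2, 18.5 and 19.0 FPKM in irradiated libraries. These 3 genes and Atf4 are the 4 of the 28 whose irradiated libraries were all below every control, a number near the share of all genes. The gap to the lowest control was small for Mthfd1l (19.16 against 19.20 FPKM).

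The later steps of serine synthesis, Psat1 and Psph, did not share the order of the first, Phgdh, whose irradiated libraries were below every control. With all libraries the log2 fold changes were -0.57 for Phgdh, -0.53 for Psat1 and -0.33 for Psph, and none passed limma. A difference between the steps was not tested. Psat1 overlapped controls 1 and 2, with 124, 97.9 and 294 FPKM in controls and 103 to 111 FPKM in irradiated libraries. Psph, which releases serine, measured 19.7, 19.3 and 98.5 FPKM in controls and 25.1, 29.4 and 25.6 FPKM in irradiated libraries. Shmt2, which turns serine into glycine in mitochondria, measured 114, 107 and 214 FPKM in controls and 111 to 116 FPKM in irradiated libraries. Cth had the highest ratio of control 3 to the other controls in FPKM, with 2.55, 1.85 and 36.9 FPKM in controls and 2.49, 3.22 and 2.32 FPKM in irradiated libraries, so irradiated libraries lay close to controls 1 and 2 and far below control 3. Pck2, mitochondrial PEP carboxykinase, measured 22.9, 28.5 and 100.2 FPKM in controls and 25.6 to 31.3 FPKM in irradiated libraries.

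On the deposited scale, all 5 amino acid transporters that could be tested had irradiated libraries above controls 1 and 2 and below control 3. That order was seen in 12.0% of all genes tested. Over the 28 genes its count was 17 as deposited, 15 with trimmed-mean scaling and 18 with quantile normalization. Slc7a5, the large neutral amino acid carrier LAT1 (chromosome 8, 121881146 to 121907686 on GRCm38.p6), measured 20.1, 12.7 and 105 FPKM in controls 1 to 3 and 33.8, 32.2 and 34.2 FPKM in irradiated libraries. Slc6a9, the glycine transporter GLYT1, measured 6.0, 8.20 and 62.6 FPKM in controls and 9.96, 11.7 and 10.6 FPKM in irradiated libraries. The serine and alanine carrier Slc1a4 measured 7.02, 6.20 and 30.2 FPKM in controls and 12.4, 13.2 and 11.3 FPKM in irradiated libraries. In FPKM, the irradiated libraries of all 5 transporters sat nearer to controls 1 and 2 than to control 3. The cationic carrier Slc7a1 measured 12.4, 12.1 and 33.7 FPKM in controls and 16.8 to 17.8 FPKM in irradiated libraries, and the glutamine and alanine carrier Slc38a2 measured 99.6, 85.5 and 206 FPKM in controls and 103 to 111 FPKM in irradiated libraries. Median differences of the irradiated mean were 0.70, 0.47 and -1.24 from controls 1, 2 and 3.

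Leaving out control 3 turned the comparison into one of 3 irradiated libraries with 2 controls that resemble each other, and there most of these genes were called higher. The genes called higher were 17 of 28 (60.7%), beside 45.8% of all 11053 genes tested in that setting, and those called lower were 3 (10.7%), beside 23.3%. The median log2 fold change was 0.44 over the 28 genes and 0.24 over all genes. By role, the genes called higher were 4 of 7 factors, 5 of 5 effectors, 4 of 11 enzymes and 4 of 5 transporters, and the 3 called lower were Atf4, Phgdh and Mthfd2. By limma the log2 fold change of Sesn2 was 1.97 ± 0.24 (SE, adjusted p = 0.000201) and that of Ddit4 1.95 ± 0.16 (adjusted p = 5.27e-05). That of Atf3 was 1.75 ± 0.11 (adjusted p = 2.19e-05) and that of Chac1 1.58 ± 0.14 (adjusted p = 7.19e-05). Mthfd2 had -0.27 (adjusted p = 0.0317) and Phgdh -0.34 (adjusted p = 0.00995). The 8 genes not called were Psat1, Shmt2, Mthfd1l, Atf5, Cth, Nupr1, Pck2 and Slc38a2. Because 2 similar controls set the spread and most genes are called there, these calls serve as a description.

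**Figure D4:**
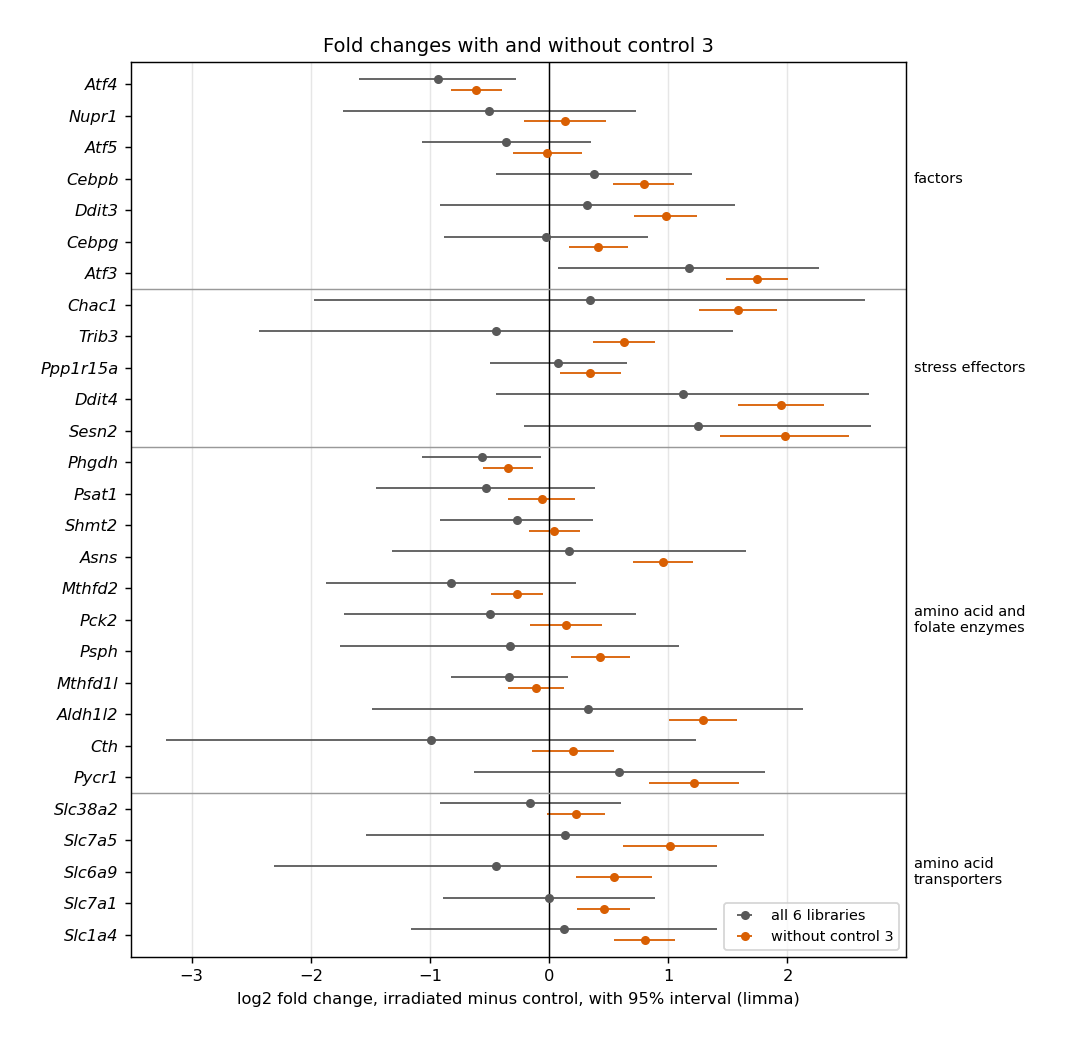
Log2 fold change (irradiated minus control) with its 95% interval from limma for each of the 28 tested genes, with all 6 libraries in grey and without control 3 in orange. The grey intervals cross 0 for all genes except Atf4, Atf3 and Phgdh, and the orange ones are narrower and lie above 0 for the 17 genes called higher.

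The genes with and without the ATF4 and C/EBP core can be set side by side as a description. All 8 tested genes with a match were at least 2-fold above both other controls in control 3, and 11 of the 17 with a window but no match were. Cth, Aldh1l2 and Slc7a5 had no window and are in neither count. In control 3 each of them exceeded the higher of the other controls by more than 2-fold (3.42, 2.85 and 2.33 on the log2(FPKM + 1) scale). The core was searched only within these windows. The median difference of control 3 from control 1 was 2.11 (range 1.72 to 3.65) on the log2(FPKM + 1) scale with a match and 1.24 (range 0.58 to 3.18) without. The ranges overlapped, and no test was made of genes that share libraries.

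Other lists of the pathway gave different counts. Of 19 further ATF4 target genes tested, 0 passed limma with all libraries, beside 12.0% of all genes tested. At an unadjusted p below 0.05 there were 3 (Yars, Eif4ebp1 and Bcat1), beside 38.3% of all genes. In 10 (52.6%) control 3 was at least 2-fold above both other controls, against 5.78% of all genes tested. Of the 19, those with the smallest p were Yars, a tRNA synthetase, and Eif4ebp1, a translation repressor, with log2 fold changes of -0.71 and -0.48 (limma adjusted p = 0.0618 and 0.0645). Gadd45a, a stress and p53 target named here after its values were seen, measured 9.02, 6.11 and 118 FPKM in controls 1 to 3 and 25.6, 29.6 and 21.9 FPKM in irradiated libraries, the order of Chac1.

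The kinases and factors upstream of ATF4 were few, and their counts were near those of all genes. Of 17 genes of the eIF2 kinases, eIF2 and its exchange factor, 0 were at least 2-fold above both other controls in control 3, against 5.78% of all genes tested, and 1 rose and 1 fell with all libraries, against 12.0% of all genes called. Eif2ak2 encodes PKR, the kinase that senses double-stranded RNA and an interferon-induced gene. It rose from 13.2, 15.0 and 13.2 FPKM in controls to 53.1, 58.7 and 43.3 FPKM in irradiated libraries, with no overlap between the groups and control 3 within the range of controls 1 and 2 (log2 fold change 1.82, SE 0.15, limma adjusted p = 0.00179). Dnajc3, an inhibitor of the eIF2 kinases, fell from 10.6, 10.1 and 10.5 FPKM to 6.93, 6.57 and 7.68 FPKM (-0.50, SE 0.12, limma adjusted p = 0.0469). That call ended with any 1 library other than control 3 left out (limma adjusted p = 0.0774 to 0.218), with the replicate block (0.118), without the filter (0.0500346), with the filter at 5 FPKM (0.0537) and with a pseudocount of 0.1 (0.0514), whereas Eif2ak2 passed in every setting, at most at 0.0352. Eif2ak3 and Eif2ak4, which encode PERK and GCN2, did not pass (limma adjusted p = 0.0781 and 0.361).

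Of 18 genes of the ATF6 and XBP1 branches of the unfolded protein response, 2 (Atf6 and Ern1) were 2-fold higher in control 3. Syvn1, a ubiquitin ligase of the endoplasmic reticulum, was the 1 that passed with all libraries, beside 12.0% of all genes tested. It rose from 12.6, 13.5 and 13.2 to 20.7, 22.4 and 21.7 FPKM (log2 fold change 0.68, SE 0.11, limma adjusted p = 0.0186). It did not pass with trimmed-mean scaling (limma adjusted p = 0.0527), with the replicate block (0.0816), without control 1 (0.10037) or without any 1 irradiated library (0.14037 to 0.177). At an unadjusted p below 0.05 there were 4 (Syvn1, Ern1 and Dnajb9 higher, Sec61b lower). Ern1 measured 1.53, 0.94 and 12.0 FPKM in controls and 16.9 to 22.2 FPKM in irradiated libraries (log2 fold change 2.40). Dnajb9 measured 9.45, 4.19 and 18.3 FPKM in controls and 22.05 to 27.9 FPKM in irradiated libraries (1.35). Sec61b measured 571, 662 and 392 FPKM in controls and 309 to 318 FPKM in irradiated libraries (-0.76). Ern1, Dnajb9 and Sec61b did not pass limma. The chaperone Hspa5 measured 494, 363 and 536 FPKM in controls and 491 to 515 FPKM in irradiated libraries. Of 12 other amino acid transporters tested, 1 (Slc7a11) was 2-fold higher in control 3 and 0 passed limma (5 at an unadjusted p below 0.05, smallest for Slc36a1 and Slc38a9, adjusted p = 0.0636 and 0.0959). Of 15 other serine, glycine and folate enzymes, 0 were 2-fold higher in control 3 and 0 passed limma (5 at an unadjusted p below 0.05, smallest for Ahcy and Tyms, adjusted p = 0.0543 and 0.0691). Among all genes tested the shares were 5.78% 2-fold higher in control 3, 12.0% called and 38.3% at an unadjusted p below 0.05.

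**Figure D5:**
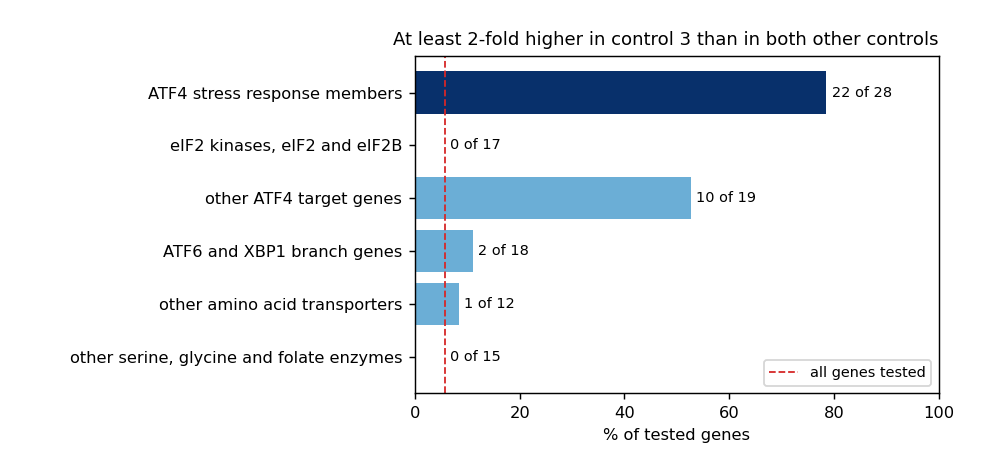
Share of tested genes (x axis, %) that were at least 2-fold higher in control 3 than in both other controls, for the stress response genes and 5 other gene lists, with the counts beside the bars. The dashed line is the share of all genes tested (5.78%); the 2 ATF4 lists reach 78.6% and 52.6%.

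The remaining genes were too low to test. Fgf21, a secreted stress hormone, measured 0.17, 0 and 4.81 FPKM in controls 1 to 3 and 0.29, 1.24 and 0.46 FPKM in irradiated libraries, again with its highest value in control 3. Slc7a3, a cationic amino acid carrier, measured 0.92, 2.00 and 1.17 FPKM in controls and 0.57 to 0.94 FPKM in irradiated libraries. Vldlr, a lipoprotein receptor, did not exceed 0.02 FPKM in any library.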

How the data were processed

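RNA of 3 control and 3 irradiated SCC7 samples was sequenced after removal of ribosomal RNA, per the labels' protocols. The deposited values are FPKM, per the file headers, rounded to 2 decimals. HISAT and the build GRCm38.p6 are named in the submitters' processing notes, and the counting tool is not given in the sources used here. FPKM hold no read numbers, so the depth is unknown and no count model was used.

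Columns were matched to samples by title. Of the 17030 genes, the 11103 that reached 1 FPKM in 3 or more samples were fitted on log2(FPKM + 1) with limma 3.58.1 (R 4.3.3), 2 groups, with eBayes (trend, robust), and p-values were adjusted by Benjamini-Hochberg over all genes tested. The log2(FPKM + 1) scale understates changes of low genes. The fit was tested on simulated data with independent noise of equal spread in both groups. Those data lack the unequal spread of the libraries here, so the test does not bear on that spread. Alternatives were trimmed-mean scaling (of log ratios) or quantile normalization, a filter at 5 FPKM or none, a pseudocount of 0.1, no trend or robust options, the sample number as a replicate block, and omission of each sample. The genes and lists were chosen with earlier results of these data known. Every listed gene is named, and of each other pathway list those called or, with none called, the 2 with the smallest p, with further genes named after their values were seen. Gene identifiers were matched to RefSeq.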

Additional observations from a re-analysis of the deposited data

How the results depend on the processing

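The number of all genes called was 1334, and it was 727 with the filter at 5 FPKM, 300 with the sample number as a replicate block and 56 to 7638 when 1 library was left out, with the highest number without control 3. Whether the sample numbers pair the libraries could not be decided. Same-numbered deviations from the group mean correlated at -0.11, 0.02 and -0.16, but deviations within 3 libraries cannot exclude pairing. No stress response gene was called with the block (smallest limma adjusted p 0.092). Trimmed-mean scaling called 2 of them lower (Atf4 and Phgdh). Leaving out 1 library gave 0 to 20 called, 0 to 17 higher and 0 to 3 lower, and all of these calls came without control 3. Their median log2 fold change was -0.43 to 0.44 when 1 library was left out. Scaling moved the median of all genes from 0.17 to -0.01 (quantile) and -0.03 (trimmed mean), and the split of all calls from 1026 higher and 308 lower to 663 and 564, and 625 and 603. Genes called in the other 5 pathway lists numbered 3, and 6 after quantile or trimmed-mean scaling, 1 with the block and 1 to 55 when 1 library was left out.

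The sign of the log2 fold change held in every setting for 11 of the 28 genes. It turned after trimmed-mean scaling for Asns (-0.060), Ppp1r15a (-0.14), Slc7a5 (-0.083) and Slc1a4 (-0.082), after quantile normalization for Ppp1r15a (-0.017), Slc38a2 (0.011) and Slc1a4 (-0.20), and with the pseudocount of 0.1 for Slc7a1 (0.0031). When 1 library was left out, the ranges that crossed 0 were -0.053 to 0.98 (Ddit3), -0.30 to 0.96 (Asns), -0.98 to 0.63 (Trib3), -0.32 to 1.58 (Chac1), -0.72 to 0.43 (Psph), -0.45 to 0.043 (Shmt2), -0.19 to 1.29 (Aldh1l2), -1.67 to 0.20 (Cth), -0.94 to 0.13 (Nupr1), -0.26 to 0.41 (Cebpg), -0.90 to 0.14 (Pck2), -0.085 to 0.35 (Ppp1r15a), -0.24 to 0.46 (Slc7a1), -0.46 to 1.015 (Slc7a5), -0.40 to 0.23 (Slc38a2), -0.26 to 0.80 (Slc1a4), -1.05 to 0.55 (Slc6a9). The cause was not tested.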
